A study of Homo sapiens with 15 samples.

Results

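Knockdown of all isoforms of p63 was compared with its vector control in MCF-10A cells, an established, non-tumorigenic and immortalized line of human mammary epithelial cells. Of the 15 arrays of the study, 4 belonged to this comparison. The 2 arrays labelled as a short hairpin RNA (shRNA) against the p63 DNA-binding domain, called shDBD here, were set against the 2 labelled as shRNA vector control, and no array was left out. The other 11 arrays were 2 of a hairpin against the isoforms with the transactivation (TA) domain (shTA), 3 of an overexpression vector, 3 of ΔNp63α and 3 of TAp63γ. All cells were infected with retrovirus or adenovirus, the labels not saying which virus served which group, and RNA was taken at 48 hours. All 15 arrays came from MCF-10A, so a single line stands for mammary epithelium. The labels give no hairpin sequence and do not say whether the vector carried a non-targeting hairpin. The replicates are labelled biological without a word on whether each was infected separately. The p-values therefore reflect only how these arrays vary.

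p63 is a transcription factor of the p53 family. Its isoforms share a DNA-binding domain and differ in whether they carry the N-terminal TA domain, and in basal cells of stratified and mammary epithelia the isoforms without it (ΔN) predominate. There p63 is known for keeping basal cells proliferating and attached to the basement membrane. A hairpin against the shared domain is aimed at TA and ΔN isoforms alike. The transcript of the targeted gene was not analysed here, and it gives no check of the labels.

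The values were log2 expression levels from Affymetrix arrays of 22277 probe sets. Of these, 19064 had 1 gene symbol, and they stood for 11963 genes, each represented by its probe set with the highest mean level. Levels are on the log2 scale and are not compared between genes. Changes are log2 differences, shDBD minus vector, given ± SE with n = 2 per group. The SE rests on a moderated variance fitted over all 15 arrays. It is not the spread of the 4 arrays alone. Arrays have no read depth, and the number of arrays limits the precision. Replicate arrays correlated over probe sets at 0.998 (vector) and 0.9978 (shDBD), and arrays of different groups at 0.9844 to 0.9853. The median SD within a pair of replicates was 0.0756, and the median SE of a change was 0.11.

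With shDBD, 1282 genes rose and 1173 fell at an adjusted p under 0.05, which is 10.7% and 9.81% of all genes. Together these 2455 called genes made up 20.5%. At the level of probe sets, 3636 passed, or 19.1%. In each called gene both shDBD arrays lay on the same side of both vector arrays, which with 2 arrays per group was also so in 7386 (61.7%) of all genes. The median size of the change was 0.537 among genes that rose and 0.578 among those that fell, and the median over all genes was 0.000431. Larger changes were more often falls. At least a 2-fold rise was seen in 128 genes (1.07%) and at least a 2-fold fall in 210 (1.76%), and at least 4-fold changes in 14 and 23. Leaving out 1 array lowered the count of called genes to 1561 without vector replicate 1, 1610 without vector replicate 2 and 1611 without shDBD replicate 1. Fitted on the 4 arrays alone, 3757 genes were called. The count of genes changed at least 2-fold was 338 in all. It stayed at 338 without any array outside the comparison, but those arrays do not enter the size of a change.

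The direction of the large changes differed with the level of the gene in the vector arrays. Among the 20% of genes with the highest mean vector levels, 98 fell and 12 rose at least 2-fold. In the middle 20%, 22 fell and 43 rose. Among the lowest 20%, 0 fell and 14 rose. The vector level is also one side of the change, so genes ranked high by it lean toward falls. The lowest 20% spanned vector levels of 3.42 to 5.81, around the level counted as low (5.4), which leaves little room for a 2-fold fall. The contrast is therefore partly built in, and how far was not tested. The plot sets the change against the mean over both groups instead, and there too large falls lie mostly at high levels.

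The labelled cell type was checked against markers. KRT5, a basal keratin, was abundant in all 4 arrays, at 14.06 and 14.08 in the vector arrays and 13.97 and 13.86 with shDBD, as was the pan-epithelial marker E-cadherin (CDH1), at 11.81 and 11.97 in the vector arrays and 11.67 and 11.94 with shDBD. Neither passed the test (−0.16 ± 0.12 and −0.089 ± 0.10). Of the 5 pan-epithelial markers measured, 1 rose and 0 fell, and 2 were higher with shDBD than with shTA in the direct test. The level of 1 of the 5 lay below the 20th percentile in both groups. The mean level of 6 basal markers was 12.3 in each vector array and 11.5 in each shDBD array, and 4 of the 6 fell. Of 7 luminal markers, whose mean level was 7.38 and 7.39 in the vector arrays and 7.7 and 7.75 with shDBD, 2 rose (GATA3 and ERBB3) and 0 fell, and 4 were higher with shDBD than with shTA in the direct test. Of the fibroblast (6), adipocyte (4) and melanocyte (3) markers measured, 0 were called, and their mean levels lay between 5.6 and 6.44 in every array, against a 20th percentile of 5.4. Of 5 endothelial markers PECAM1 (0.41 ± 0.12) and KDR (0.29 ± 0.094) rose. The PECAM1 call was lost without any 1 of the 4 arrays, and the KDR call without vector replicate 2, either shDBD replicate and 5 of the other 11 arrays. Of 5 immune markers CD14, a receptor for bacterial lipopolysaccharide, stood at 9.14 and 8.98 in the vector arrays and 10.22 and 10.44 with shDBD (1.27 ± 0.11), while the pan-leukocyte gene PTPRC did not pass (0.066 ± 0.13). In RNA from a whole culture, fewer cells of a type and less RNA per cell cannot be told apart.

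RNA quality, as seen in array controls, moved with the groups. The actin 3′ minus 5′ difference was −0.0938 and −0.0799 in the vector arrays and 0.0854 and 0.0483 with shDBD. That of GAPDH was 0.00608 and 0.00741 against 0.0453 and 0.023. Both shDBD arrays were higher than both vector arrays in each measure, by much less than a 2-fold change. The actin shift was, however, close in size to the smallest change called in any gene, 0.171. The part of this difference in the changes below was not tested.

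SLC7A11, the cystine importer that feeds glutathione synthesis, stood at 9.37 and 9.40 in the vector arrays and 6.27 and 6.003 with shDBD, a 9.51-fold fall (−3.25 ± 0.18, adjusted p = 1.21e-08). PHGDH, the first enzyme of serine synthesis, stood at 10.99 and 11.08 in the vector arrays and 8.30 and 8.27 with shDBD (−2.75 ± 0.14). In both genes the 2 arrays of a group lay close together and far from the other group. ZBED2, a BED-type zinc finger protein, stood at 9.19 and 9.21 in the vector arrays and 6.67 and 6.70 with shDBD (−2.52 ± 0.12). AMIGO2, an adhesion molecule of the leucine-rich repeat family, fell too (−2.31 ± 0.16).

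At the other end, CYP4B1, a cytochrome P450 that hydroxylates fatty acids, stood at 6.65 and 6.83 in the vector arrays and 9.97 and 10.503 with shDBD, a difference of 11.3-fold (3.500 ± 0.14, adjusted p = 1.1e-09). SRGN, the core protein of an intracellular proteoglycan, stood at 7.24 and 7.21 in the vector arrays and 10.40 and 10.55 with shDBD (3.25 ± 0.19). ID2, which blocks basic helix-loop-helix factors, stood at 6.57 and 6.81 in the vector arrays and 9.51 and 9.64 with shDBD (2.88 ± 0.12). In these 3 genes both shDBD arrays lay far above both vector arrays. SELENOP, the selenium carrier of plasma, rose by 2.86 ± 0.26 and DCN, a small leucine-rich proteoglycan of collagen fibrils, by 2.37 ± 0.13. PTGS2, the inducible cyclooxygenase, stood at 4.88 and 4.75 in the vector arrays and 6.92 and 7.75 with shDBD (2.52 ± 0.29). Its vector arrays lay below the 20th percentile of their arrays, so they are not shown to be above background, and the change with values floored there was 1.94. SULT1E1, an estrogen sulfotransferase (1.85 ± 0.15), AZGP1, a lipid-mobilizing secreted protein (1.90 ± 0.15), and CCN5, a matricellular growth inhibitor (2.01 ± 0.14), were also among the 30 largest rises.

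**Figure D1:**
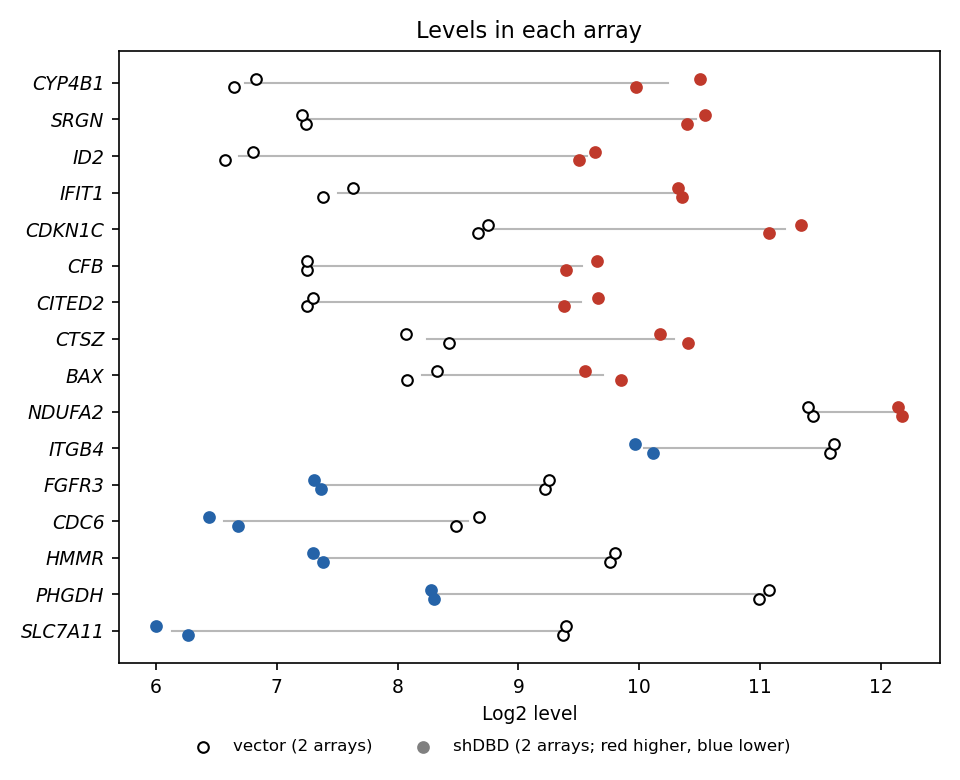
Log2 level of 16 genes named in the text in each of the 4 arrays, with open circles for the 2 vector arrays and filled circles for the 2 shDBD arrays. Genes are ordered by their change, from CYP4B1 at the top to SLC7A11 at the bottom. The groups are separated in every gene shown, as they are in all called genes.

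Genes of mitosis fell almost without exception. These genes are switched on together as cells pass from G2 into mitosis. Of 30 measured mitotic kinases, cyclins and their regulators, 29 fell and 0 rose, with a median of −1.53, and 27 fell at least 2-fold. Of 50 genes of kinetochore, spindle and cytokinesis, 47 fell and 0 rose, with a median of −1.44, and 37 at least 2-fold. Against this, 9.81% of all genes fell, with a median over all genes of 0.000431.

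Among the regulators, TTK, the kinase that sets the spindle checkpoint, stood at 8.37 and 8.62 in the vector arrays and 6.29 and 5.88 with shDBD (−2.41 ± 0.25). FOXM1, a transcription factor of G2 genes, stood at 9.35 and 9.32 in the vector arrays and 7.40 and 7.28 with shDBD (−1.99 ± 0.16), and CDK1, the kinase that drives entry into mitosis, at 9.86 and 10.01 in the vector arrays and 7.99 and 7.93 with shDBD (−1.97 ± 0.21). No shDBD array reached a vector array in any of the 3. The mitotic kinases PLK1 (−1.90 ± 0.13) and AURKB (−1.89 ± 0.16), the spindle checkpoint kinases BUB1 (−2.002 ± 0.097) and BUB1B (−1.98 ± 0.12) and the anaphase activator CDC20 (−1.88 ± 0.17) fell by similar amounts. WEE1, which restrains CDK1, was the member that did not pass (−0.26 ± 0.18, adjusted p = 0.393).

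Among structural genes, HMMR, a spindle-associated hyaluronan receptor, stood at 9.76 and 9.80 in the vector arrays and 7.38 and 7.30 with shDBD (−2.44 ± 0.20), and CENPF, a kinetochore protein, fell by a like amount (−2.26 ± 0.12). DLGAP5, which stabilizes spindle microtubules (−2.37 ± 0.18), the kinesins KIF14 (−2.21 ± 0.12) and KIF4A (−2.09 ± 0.11), and TOP2A, the topoisomerase that untangles chromosomes (−2.003 ± 0.11), fell too. The members that did not pass were KIF22 (−0.34 ± 0.15), INCENP (−0.29 ± 0.097) and CENPC (−0.013 ± 0.17), a kinetochore base protein. Against shTA, 29 of the 30 regulators and 47 of the 50 structural genes were lower with shDBD in the direct test, where 17.5% of all genes differed in either direction.

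**Figure D2:**
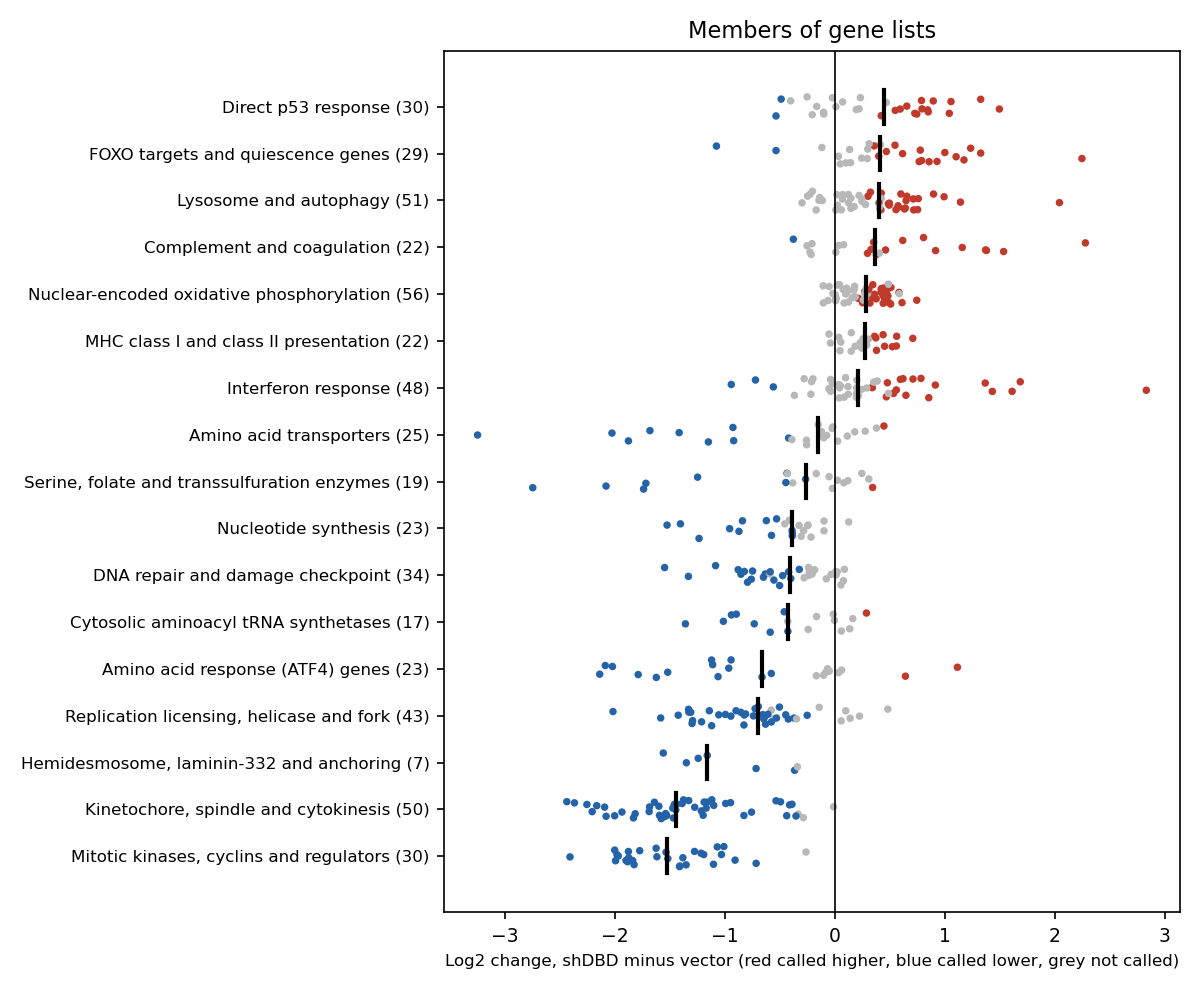
Log2 change (shDBD minus vector) of every measured member of 17 gene lists. Each point is a gene, coloured where called, the black bar is the list's median, and the number measured stands beside each name; the mitosis lists lie furthest below 0 and the FOXO, p53 and lysosome lists above it.

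Promoters of these lists share short motifs that the choice of the lists did not use. The sequences are RefSeq promoters of build GRCh38.p14, 250 bases before to 50 after the start, which were given for 9562 of the genes tested. The cell cycle homology region (CHR) was searched as TTTGAA or TTCGAA, and the CCAAT box as CCAAT, each on both strands. Among the 67 promoters of both mitosis lists, 70.1% held a CHR match and 71.6% a CCAAT match. The shares over all 9562 promoters were 12.4% and 37.3%. Over all genes that fell at least 2-fold, the CHR share was 35.5% (172 promoters). Among genes that fell but stood in neither the mitosis lists nor the replication list, it was 12.6% (884 promoters), near that of all genes. Stretches of the HMMR and DLGAP5 promoters are shown because these members had the largest falls among those that hold both motifs, with the matches on either strand in capitals.
HMMR (CHR, chr5:163460568-163460631, plus strand): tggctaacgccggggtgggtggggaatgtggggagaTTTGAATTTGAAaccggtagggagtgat
HMMR (CCAAT, chr5:163460523-163460612, plus strand): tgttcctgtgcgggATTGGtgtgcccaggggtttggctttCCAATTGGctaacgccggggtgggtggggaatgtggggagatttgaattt
DLGAP5 (CHR, chr14:55191647-55191736, minus strand): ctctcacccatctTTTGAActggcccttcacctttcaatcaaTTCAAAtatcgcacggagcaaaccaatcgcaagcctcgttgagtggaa
DLGAP5 (CCAAT, chr14:55191586-55191650, minus strand): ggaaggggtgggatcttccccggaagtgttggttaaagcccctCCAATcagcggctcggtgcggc
The 2 HMMR stretches overlap. In DLGAP5 the first CHR match reads forward and the other as the reverse complement. A match is a description of the letters and not a bound site.

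Replication genes fell as well, by smaller amounts than those of mitosis. Of 43 genes of replication licensing, helicase and fork, 34 fell and 0 rose, with a median of −0.70, and 12 fell at least 2-fold. That is 79.1% lower, against 9.81% of all genes. CDC6, which loads the MCM helicase at origins, stood at 8.48 and 8.68 in the vector arrays and 6.68 and 6.44 with shDBD (−2.02 ± 0.19). MCM5 (−1.58 ± 0.13) and MCM7 (−1.42 ± 0.23), subunits of that helicase, and CDT1, the partner of CDC6 in licensing (−1.33 ± 0.14), fell too. At the fork, the clamp loader subunit RFC4 fell (−1.33 ± 0.094), and the clamp PCNA itself did not pass (−0.35 ± 0.14). The single-strand binding subunits RPA1 (0.057 ± 0.084) and RPA2 (0.22 ± 0.14) did not pass either.

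The supply of nucleotides followed in part. Of 23 genes of nucleotide synthesis, 12 fell (52.2%) and 0 rose, with a median of −0.39, against 9.81% of all genes that fell. RRM2, the regulated subunit of ribonucleotide reductase, stood at 11.58 and 11.58 in the vector arrays and 10.17 and 9.95 with shDBD (−1.53 ± 0.11). The thymidine enzymes TK1 (−1.40 ± 0.098) and TYMS (−1.24 ± 0.094) fell by similar amounts. The genes that fell at least 2-fold were these 3, all of deoxynucleotide supply. Of the purine enzymes, IMPDH2 (−0.41 ± 0.19) and ATIC (−0.25 ± 0.13) did not pass. With the knockdown arm fitted alone, or these 4 arrays alone, 19 of the 23 fell.

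Of 34 genes of DNA repair and the damage checkpoint, 18 fell (52.9%) and 0 rose, with a median of −0.41. The share of all genes that fell was 9.81%. The Fanconi anemia genes FANCI (−1.55 ± 0.11) and FANCG (−1.33 ± 0.097) fell most, and the break sensor NBN (−0.88 ± 0.15) and the checkpoint kinase CHEK1 (−0.76 ± 0.11) fell less. XRCC5, a Ku subunit that binds broken ends, did not pass (0.054 ± 0.090). Without vector replicate 2, and likewise without shDBD replicate 2, 11 of the 34 fell.

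Among 29 clustered and variant histones, the packaging proteins of DNA, 9 rose (31%) and 2 fell (6.9%), against 10.7% and 9.81% of all genes. H1-2, a linker histone, stood at 8.48 and 8.62 in the vector arrays and 10.35 and 10.45 with shDBD (1.85 ± 0.13), both shDBD arrays above both vector arrays. H2BC5 (1.56 ± 0.094), H2BC21 (1.45 ± 0.17) and H4C8 (1.36 ± 0.13) rose, while H2AZ1, a variant with its own polyadenylated transcript, fell (−0.79 ± 0.084). The vector level of H4C8 lay below the 20th percentile of its arrays. Clustered histones are near-identical copies, so which copy a probe set measures is uncertain.

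The E2F motif, searched as TTTCGCGC, TTTGGCGC or TTTCCCGC on both strands, was held by 45.9% of 37 replication promoters, 7.46% of the mitosis promoters and 4.12% of all 9562. MCM7 and CDT1 are shown, each with the match in capitals. The match in CDT1 is the reverse complement of TTTCCCGC.
MCM7 (E2F, chr7:100101398-100101447, minus strand): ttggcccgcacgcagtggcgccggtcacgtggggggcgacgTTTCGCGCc
CDT1 (E2F, chr16:88803713-88803788, plus strand): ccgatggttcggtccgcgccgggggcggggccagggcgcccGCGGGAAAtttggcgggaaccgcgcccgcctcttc

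The regulators that act before S phase gave a mixed picture. Of 24 G1 cyclins, cyclin-dependent kinases (CDKs), their inhibitors, E2F and RB genes, 5 rose and 4 fell. That is 20.8% and 16.7%, against 10.7% and 9.81% of all genes. The count of falls was 1 without vector replicate 2 or shDBD replicate 2. The CDK inhibitor CDKN1C (p57) stood at 8.66 and 8.75 in the vector arrays and 11.08 and 11.34 with shDBD (2.51 ± 0.13), a 5.68-fold rise. CDKN1A (p21) rose by 0.79 ± 0.16 and CDKN1B (p27) by 0.91 ± 0.21, the latter call being lost without vector replicate 1. The G1 kinase CDK4 (−0.504 ± 0.21) and the repressor E2F4 (−0.18 ± 0.10) did not pass.

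Genes of the quiescent state rose. The transcription factors of the FOXO family are active where growth factor signalling is low. Of 29 FOXO targets and quiescence genes, 16 rose (55.2%) and 2 fell (6.9%), against 10.7% and 9.81% of all genes. Their median change was 0.41. CITED2, a co-regulator of CBP and p300, stood at 7.25 and 7.30 in the vector arrays and 9.38 and 9.66 with shDBD (2.25 ± 0.14). SESN1, a stress-induced inhibitor of mTORC1 (1.32 ± 0.12), the Krüppel-like factor KLF9 (1.23 ± 0.10), the antiproliferative gene BTG1 (1.17 ± 0.13), BCL6 (1.10 ± 0.15) and FOXO1 itself (0.999 ± 0.15) rose. KLF4 (−1.08 ± 0.20) and the stress gene GADD45A (−0.54 ± 0.089) fell, and TSC22D3, a glucocorticoid-induced gene (0.14 ± 0.16), did not pass.

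Of 30 direct p53 response genes, 15 rose and 2 fell, with a median of 0.44, against 10.7% of all genes that rose. BAX, which opens the outer mitochondrial membrane, stood at 8.08 and 8.33 in the vector arrays and 9.85 and 9.55 with shDBD (1.49 ± 0.19). ZMAT3, an RNA-binding protein (1.04 ± 0.18), RPS27L, a ribosomal protein paralog (0.89 ± 0.091), PPM1D, a phosphatase that limits p53 (0.84 ± 0.18), and TRAF4 (0.85 ± 0.12) rose. MDM2, the ubiquitin ligase for p53, did not pass (0.070 ± 0.13, adjusted p = 0.812), nor did the cytokine GDF15 (−0.10 ± 0.11) or PHLDA3, an inhibitor of AKT (−0.25 ± 0.098). PMAIP1, a BH3-only death gene, fell (−0.49 ± 0.12), a call lost without vector replicate 2 or shDBD replicate 1. In the direct test 19 of the 30 were higher with shDBD than with shTA.

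The p53 family half-site was searched by its consensus on both strands. It was held by 15.4% of 26 promoters of this list and by 5.56% of all 9562. Over all genes that fell, the share was 6.34%, and over those that rose 4.51%. ACTA2, a smooth muscle actin listed among p53 targets (1.06 ± 0.15), and RPS27L are shown with the match in capitals.
ACTA2 (p53 family half-site, chr10:88991507-88991587, minus strand): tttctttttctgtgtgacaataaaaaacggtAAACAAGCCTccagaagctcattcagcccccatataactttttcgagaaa
RPS27L (p53 family half-site, chr15:63157487-63157576, minus strand): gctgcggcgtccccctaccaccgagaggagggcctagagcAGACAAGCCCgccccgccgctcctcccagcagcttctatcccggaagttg

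Genes of amino acid supply fell from import to charging of tRNA. Many of them carry a binding element for ATF4, the transcription factor of the amino acid response, which cells raise when amino acids run short. In the serine, folate and transsulfuration list 8 of 19 fell and 1 rose, in the ATF4 list 13 of 23 fell and 2 rose, among transporters 9 of 25 fell and 1 rose, and among cytosolic tRNA synthetases 8 of 17 fell and 1 rose. The medians were −0.27, −0.66, −0.15 and −0.43 in that order. Over all genes, 9.81% fell and 10.7% rose.

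In serine synthesis the 3 enzymes that act in order, PHGDH (−2.75 ± 0.14), PSAT1 (−1.72 ± 0.15) and PSPH (−1.25 ± 0.17), all fell. MTHFD2, the mitochondrial folate enzyme, stood at 12.11 and 12.30 in the vector arrays and 10.65 and 10.28 with shDBD (−1.74 ± 0.14), and CBS, which starts transsulfuration, at 8.89 and 8.76 in the vector arrays and 7.02 and 6.47 with shDBD (−2.08 ± 0.19). AHCY of the methionine cycle (−0.38 ± 0.13) and the cytosolic folate enzyme MTHFD1 (−0.43 ± 0.16) did not pass.

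Among ATF4 genes, ASNS, which makes asparagine, stood at 11.58 and 11.71 in the vector arrays and 9.79 and 9.45 with shDBD (−2.02 ± 0.11). PCK2, the mitochondrial PEP carboxykinase (−2.14 ± 0.087), EIF4EBP1, a brake on translation initiation (−2.09 ± 0.17), the pseudokinase TRIB3 (−1.79 ± 0.085) and CHAC1, which degrades glutathione (−1.62 ± 0.13), fell. ATF4 itself fell by a smaller amount (−0.66 ± 0.084). CEBPB, a C/EBP factor (−0.057 ± 0.10), and DDIT4, an inhibitor of mTORC1 (−0.052 ± 0.085), did not pass, and ATF3, an early stress factor, rose (1.11 ± 0.091), as did PPP1R15A, which restores translation (0.64 ± 0.12).

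Of the transporters, SLC1A4, a neutral amino acid carrier, stood at 9.19 and 8.96 in the vector arrays and 6.93 and 7.16 with shDBD (−2.03 ± 0.16), and SLC1A5, the glutamine carrier, at 11.44 and 11.55 in the vector arrays and 9.93 and 9.69 with shDBD (−1.68 ± 0.15). The cationic carrier SLC7A1 (−1.42 ± 0.11), SLC3A2, the heavy chain shared by several carriers (−1.15 ± 0.096), and its partner SLC7A5 (−0.92 ± 0.13) fell. The creatine carrier SLC6A8 did not pass (−0.39 ± 0.18). Of the synthetases, AARS1 (−1.36 ± 0.18) and GARS1 (−1.01 ± 0.14) fell most, and SARS1 (−0.43 ± 0.18) and NARS1 (−0.17 ± 0.095) did not pass.

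The CARE, the element that ATF4 binds with a C/EBP partner, was searched as TGATGNAA on both strands. It was held by 19.4% of 67 promoters of the amino acid lists, by 31% of the 29 of them that fell, and by 2.25% of all 9562. ASNS and CHAC1 are shown, the match in CHAC1 being a reverse complement.
ASNS (CARE, chr7:97872428-97872517, minus strand): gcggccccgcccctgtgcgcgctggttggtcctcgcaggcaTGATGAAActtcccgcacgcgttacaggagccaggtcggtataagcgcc
CHAC1 (CARE, chr15:40953221-40953310, plus strand): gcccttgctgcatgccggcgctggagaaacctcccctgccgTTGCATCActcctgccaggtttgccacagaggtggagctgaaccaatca

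Genes that hold basal cells to the basement membrane fell. Hemidesmosomes join the keratin network to laminin-332 through integrin α6β4. Of 7 measured members 6 fell, with a median of −1.16. ITGB4, the β4 chain, stood at 11.58 and 11.62 in the vector arrays and 10.11 and 9.96 with shDBD (−1.56 ± 0.16), and its partner ITGA6 at 10.60 and 10.95 in the vector arrays and 9.55 and 9.67 with shDBD (−1.16 ± 0.18). The linker DST (−1.35 ± 0.11) and the laminin chain LAMB3 (−1.24 ± 0.14) fell too, and COL7A1, the anchoring fibril collagen, did not pass (−0.34 ± 0.12). Among 39 other integrins, matrix ligands and focal adhesion genes 11 fell (28.2%) and 7 rose (17.9%), against 9.81% and 10.7% of all genes. The basement membrane collagen COL4A2 fell (−1.13 ± 0.17), as did zyxin of focal adhesions (ZYX, −0.97 ± 0.21) and fibronectin (FN1, −0.83 ± 0.13), while the laminin chain LAMB2 (1.16 ± 0.19) and kindlin-2 (FERMT2, 1.09 ± 0.20) rose. The count of rises in that list was 4 without vector replicate 1 or shDBD replicate 2.

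Growth factor receptors and ligands fell more often than they rose. Among all genes, 9.81% fell and 10.7% rose. In the list of the EGF receptor family, its ligands and ERK feedback genes 13 of 32 fell and 2 rose, with a median of −0.16. The receptor EGFR stood at 10.88 and 10.79 in the vector arrays and 9.82 and 9.74 with shDBD (−1.06 ± 0.18). The ligand HBEGF (−1.34 ± 0.16), the feedback phosphatase DUSP6 (−1.06 ± 0.12) and the ETS factor ETV4 (−0.91 ± 0.13) fell, whereas the receptor ERBB3 rose (1.06 ± 0.13) and the AP-1 subunit JUN did not pass (0.14 ± 0.18). Among 11 FGF genes 3 fell and 1 rose, and FGFR3, a receptor of FGF, stood at 9.22 and 9.26 in the vector arrays and 7.37 and 7.31 with shDBD (−1.90 ± 0.11). FGFBP1, which frees FGF from the matrix, fell (−1.20 ± 0.099).

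Other signalling lists held single large changes. Among all genes, 10.7% rose and 9.81% fell. Of 21 genes of BMP signalling and the ID family 4 rose and 1 fell: ID2, the ligand BMP2 (1.66 ± 0.19), ID3 (0.78 ± 0.096) and ID1 (0.44 ± 0.096) rose. BMP2 stood at 6.64 and 6.41 in the vector arrays and 7.90 and 8.48 with shDBD. Of 25 TGF-beta and activin genes 7 fell and 3 rose, with LTBP1, a latent TGF-beta binding protein, at −1.52 ± 0.082 and TGFBI, a TGF-beta induced matrix protein, at −1.45 ± 0.073. The ID1 call was lost without shDBD replicate 2, and the count of TGF-beta rises was 1 without vector replicate 2 or shDBD replicate 2. Of 19 Notch genes 3 fell (15.8%), led by the ligand JAG1 (−1.53 ± 0.19). The Wnt list, with 3 rises (10.3%) and 2 falls (6.9%) of 29, stood near the shares over all genes. In it the orphan receptor ROR1 rose (1.23 ± 0.13).

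Genes of epithelial state did not move as a block. Of 42 genes of squamous differentiation and the cornified envelope 12 fell (28.6%) and 8 rose (19%), against 9.81% and 10.7% of all genes. The cross-linked envelope precursors SPRR1B (−1.90 ± 0.14) and SPRR1A (−1.53 ± 0.18) fell, and periplakin (PPL, 0.88 ± 0.090) rose. SPRR1B stood at 11.94 and 11.97 in the vector arrays and 10.13 and 9.97 with shDBD. The count of rises was 5 without vector replicate 1 or shDBD replicate 2, and 4 without vector replicate 2. Of 17 keratins 3 rose (17.6%) and 2 fell (11.8%). KRT10 of suprabasal cells (1.11 ± 0.082), KRT13 (0.48 ± 0.12) and KRT16 (0.29 ± 0.081) rose, and the basal keratin KRT14 (−0.49 ± 0.12) and KRT1 (−0.34 ± 0.11) fell, while KRT18 (−0.15 ± 0.14) and KRT8 (0.18 ± 0.12) did not pass. The KRT13 call was lost without vector or shDBD replicate 2, and the KRT14 call without vector replicate 2 or shDBD replicate 1. The KRT16 call was lost without any one of the 4 arrays, and the KRT1 call without vector replicate 1, shDBD replicate 2 or any one of 6 overexpression arrays. Among lineage factors EHF stood at 6.15 and 6.19 in the vector arrays and 7.63 and 7.95 with shDBD (1.62 ± 0.12) and GATA3, a luminal factor, at 9.68 and 9.76 in the vector arrays and 10.57 and 10.67 with shDBD (0.90 ± 0.093). The luminal pioneer factor FOXA1 did not pass (0.23 ± 0.13).

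Of 21 factors and markers of mesenchymal transition 7 fell and 3 rose, which is 33.3% and 14.3%, against 9.81% and 10.7% of all genes. SNAI2 (Slug), a repressor of E-cadherin expressed in basal cells, stood at 9.96 and 10.04 in the vector arrays and 8.14 and 7.71 with shDBD (−2.07 ± 0.12). The receptor kinase AXL (−1.52 ± 0.12), TAGLN of the actin cytoskeleton (−1.43 ± 0.12) and vimentin (VIM, −0.53 ± 0.10) fell, and the surface protein THY1 did not pass (0.083 ± 0.10). In the matrix lists, the surface proteoglycan SDC1 (−1.55 ± 0.12), the hyaluronan receptor CD44 (−1.08 ± 0.086), and the plasminogen activators PLAT (−2.10 ± 0.11) and PLAU (−1.40 ± 0.10) fell. The collagen cross-linker LOX (1.38 ± 0.20) and the calcification inhibitor MGP (1.18 ± 0.13) rose, LOX with vector replicate 2 below the 20th percentile. Among junction genes occludin (OCLN, 0.97 ± 0.095) and TJP3 (1.30 ± 0.14) rose and nectin-1 (NECTIN1, −1.06 ± 0.10) fell, while desmoplakin (DSP, 0.055 ± 0.079) and P-cadherin (CDH3, −0.35 ± 0.13) did not pass.

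A set of interferon response genes rose. Interferons act through STAT and IRF9 complexes on the ISRE element. Of 48 measured genes 17 rose (35.4%) and 3 fell (6.25%), with a median of 0.21, against 10.7% and 9.81% of all genes. With the knockdown arm or these 4 arrays fitted alone 24 rose and 6 fell. IFIT1, which binds foreign RNA, stood at 7.39 and 7.63 in the vector arrays and 10.36 and 10.32 with shDBD (2.83 ± 0.19). RSAD2 (viperin, 1.61 ± 0.19), IFI27 (1.43 ± 0.11), the ubiquitin-like ISG15 (1.37 ± 0.18) and IRF9 (0.91 ± 0.11) rose. IFITM3 (0.20 ± 0.088) and IFITM2 (0.19 ± 0.10), which block viral entry, and the RNA editor ADAR (−0.21 ± 0.11) did not pass, and IFI16, a DNA sensor, fell (−0.94 ± 0.11).

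The ISRE was searched as GAAANNGAA on both strands. It was held by 67.6% of 37 promoters of the list, by 78.6% of the 14 whose genes rose, and by 6.85% of all 9562. IFIT1 and IFI44L, at 5.58 and 5.17 in the vector arrays and 6.98 and 7.14 with shDBD (1.68 ± 0.13), are shown. Vector replicate 2 of IFI44L and vector replicate 1 of RSAD2 lay below the 20th percentile of their arrays, so neither is shown to be above background there.
IFIT1 (ISRE, chr10:89392480-89392569, plus strand): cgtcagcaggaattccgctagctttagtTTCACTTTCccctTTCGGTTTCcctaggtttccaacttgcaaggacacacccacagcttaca
IFI44L (ISRE, chr1:78620334-78620423, plus strand): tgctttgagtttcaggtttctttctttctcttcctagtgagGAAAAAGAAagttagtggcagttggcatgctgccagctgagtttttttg

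Antigen presentation and complement held more rises than falls. Of 22 genes of MHC class I and class II presentation 9 rose and 0 fell, with a median of 0.27. These were class I and its loading machinery, such as HLA-B (0.71 ± 0.076), the peptide transporter TAP1 (0.56 ± 0.11) and HLA-E (0.45 ± 0.071). Class II genes, HLA-DRA (−0.054 ± 0.086) and CD74 (0.15 ± 0.091) among them, did not pass. HLA genes are near-identical in sequence, so their probe sets may share signal. Of 22 complement and coagulation genes 13 rose and 1 fell, with a median of 0.36. CFB, the protease of the alternative pathway, stood at 7.25 and 7.25 in the vector arrays and 9.39 and 9.65 with shDBD (2.28 ± 0.16). The central component C3 (1.37 ± 0.19), the protease-like C1RL (1.53 ± 0.12), the anticoagulant protein S (PROS1, 1.38 ± 0.10) and clusterin (CLU, 0.81 ± 0.11) rose. Without any one of the 4 arrays 7 or 8 complement genes rose. In cytokines no common direction was seen, with 7 rises (18.4%) and 4 falls (10.5%) of 38, against 10.7% and 9.81% of all genes. IL1A (−0.93 ± 0.091) and IL1B (−0.77 ± 0.12) fell, and the receptor IL1R1 (1.15 ± 0.14) and CXCL2 (0.98 ± 0.16) rose. The count of cytokine rises was 4 without shDBD replicate 2. CD14, an immune marker, rose beside these lists and PTPRC did not pass. Its part in these rises was not tested.

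Many genes of mitochondrial respiration rose by small amounts. Of 56 nuclear-encoded genes of oxidative phosphorylation 28 rose (50%) and 0 fell, with a median of 0.28. Over all genes, 10.7% rose and 9.81% fell. NDUFA2, a subunit of complex I, stood at 11.44 and 11.39 in the vector arrays and 12.18 and 12.14 with shDBD (0.74 ± 0.11). NDUFB5 of the same complex (0.61 ± 0.11), UQCRB of complex III (0.49 ± 0.072), COX7C of complex IV (0.48 ± 0.075) and ATP5PF of the ATP synthase (0.49 ± 0.075) rose. ATP5F1A, a subunit of the synthase head, did not pass (0.17 ± 0.099). None of these changes reached 2-fold. Without vector replicate 1 or 2, or shDBD replicate 1 or 2, the count of rises was 15, 18, 14 and 17. In the citrate cycle and glutamine list 8 of 24 rose and 2 fell, with pyruvate carboxylase (PC) at 0.60 ± 0.13. That count of rises was 4 without vector replicate 1, 5 without shDBD replicate 1 and 15 with the knockdown arm or these 4 arrays fitted alone.

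Lysosomal genes rose as well. Of 51 genes of lysosome and autophagy 25 rose (49%) and 0 fell, with a median of 0.40. The share of all genes that rose was 10.7%. CTSZ, a cathepsin, stood at 8.42 and 8.07 in the vector arrays and 10.41 and 10.17 with shDBD (2.04 ± 0.20). The protective protein CTSA (1.14 ± 0.13), the α-mannosidase MAN2B1 (0.99 ± 0.11), the calcium channel MCOLN1 (0.90 ± 0.13), the membrane protein LAMP1 (0.72 ± 0.11) and the α-glucosidase GAA (0.71 ± 0.14) rose. The saposin precursor PSAP (0.41 ± 0.17) and the autophagosome gene GABARAP (0.42 ± 0.16) did not pass. The count was 16 without vector replicate 1 and 15 without shDBD replicate 1.

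Other metabolic lists were split. Among all genes, 10.7% rose and 9.81% fell. Of 39 glycolysis and hypoxia genes 9 fell and 8 rose: the glycolytic enzymes TPI1 (−0.82 ± 0.093) and PFKP (−0.92 ± 0.19) and the carbonic anhydrase CA12 (−1.57 ± 0.16) fell, while PDK4, which closes pyruvate dehydrogenase (1.24 ± 0.13), and the mitophagy receptor BNIP3L (1.22 ± 0.17) rose. LDHA (−0.14 ± 0.062) and PKM (−0.38 ± 0.17) did not pass. The rises were 5 without vector replicate 1 or shDBD replicate 2, and the falls 14 and 15 with the knockdown arm or these 4 arrays fitted alone. Among 30 cytochrome P450 and aldehyde dehydrogenase genes 8 rose and 2 fell. After CYP4B1, the estrogen hydroxylase CYP1B1 rose most (2.04 ± 0.12), followed by ALDH5A1 (1.44 ± 0.14). All 6 called falls among 16 metallothionein and iron genes were metallothioneins, which bind zinc and copper, such as MT1F (−0.89 ± 0.056) and MT2A (−0.46 ± 0.043). Metallothionein copies are near-identical, so their probe sets are not independent. The zinc importer SLC39A8 rose (1.496 ± 0.16). Of 25 genes of cholesterol and fatty acid synthesis 7 fell and 1 rose, led by FADS2 (−1.03 ± 0.15). These falls numbered 3 without vector replicate 2 or shDBD replicate 1.

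Genes of ribosomes, proteasomes and the spliceosome were counted in the same way. Of 52 cytosolic ribosomal proteins 8 rose (15.4%) and 0 fell, with a median of 0.12 and a highest change of 0.283, against 10.7% of all genes that rose. The count of rises was 1 or 2 without any one of the 4 arrays, 11 with the knockdown arm fitted alone and 24 with these 4 arrays alone. Of 45 genes of ribosome biogenesis 3 fell and 0 rose, the largest in TCOF1, a factor of ribosomal RNA transcription (−1.04 ± 0.11), and the median was −0.055. With the knockdown arm or these 4 arrays fitted alone 6 and 9 of the 45 fell. In the proteasome list 3 of 35 fell and 2 rose, against 9.81% and 10.7% of all genes, and 1 fell without any one of the 4 arrays. Of 54 genes of the spliceosome and mRNA processing 14 fell and 0 rose. That count was 6 and 2 without vector replicate 1 or 2, and 7 and 4 without shDBD replicate 1 or 2.

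Knockdown was set against overexpression of ΔNp63α, the isoform that lacks the TA domain, which was compared with its own vector (3 arrays each). These groups share no array with the knockdown. ΔNp63α raised 1416 genes (11.8%) and lowered 1929 (16.1%). Of the 1173 genes lower with shDBD, 376 were higher with ΔNp63α, which is 32.1% of the first list and 26.6% of the second. Of the 1282 genes higher with shDBD, 315 were lower with ΔNp63α, 24.6% and 16.3% of each list. In all, 691 genes were called in opposite directions. A further 489 were called in the same direction, 224 up in both (17.5% and 15.8%) and 265 down in both (22.6% and 13.7%).

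Opposite changes of at least 2-fold in both were found in 16 genes, 12 of them lower with shDBD and 4 higher. FGFR3 changed by −1.90 ± 0.11 with shDBD and 1.94 ± 0.091 with ΔNp63α. The same order held for SPRR1B (1.82 ± 0.11 with ΔNp63α), the plasminogen activator PLAU (2.28 ± 0.082), FGFBP1 (3.19 ± 0.081), CA12 (1.59 ± 0.13) and the replication factor MCM10, at −1.30 ± 0.10 and 1.17 ± 0.084. The 4 genes that were higher with shDBD and lower with ΔNp63α were C1RL (−1.20 ± 0.099 with ΔNp63α), mesothelin (MSLN, 1.19 ± 0.13 and −1.17 ± 0.11), ZMAT3 (−1.21 ± 0.15) and CYP1B1 (−1.01 ± 0.098).

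The gene lists were counted with ΔNp63α in the same way. Over all genes, 11.8% were higher and 16.1% lower with ΔNp63α, against 10.7% and 9.81% with shDBD. Of the 43 replication genes 26 were higher with ΔNp63α and 2 lower, and of the 50 kinetochore and spindle genes 27 were higher and 0 lower, with medians of 0.417 and 0.41. Of the 30 mitotic regulators, 11 were higher and 2 lower. Of 23 ATF4 genes 15 were lower with ΔNp63α, and of 17 tRNA synthetases 15, where 13 and 8 were lower with shDBD. ASNS was at −1.31 ± 0.090, PHGDH at −1.19 ± 0.12 and SLC7A11 at −1.14 ± 0.15 with ΔNp63α. All 48 interferon genes were higher with ΔNp63α, with a median of 2.41, and IFIT1 was at 6.02 ± 0.16. With shDBD 17 of them rose.

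**Figure D3:**
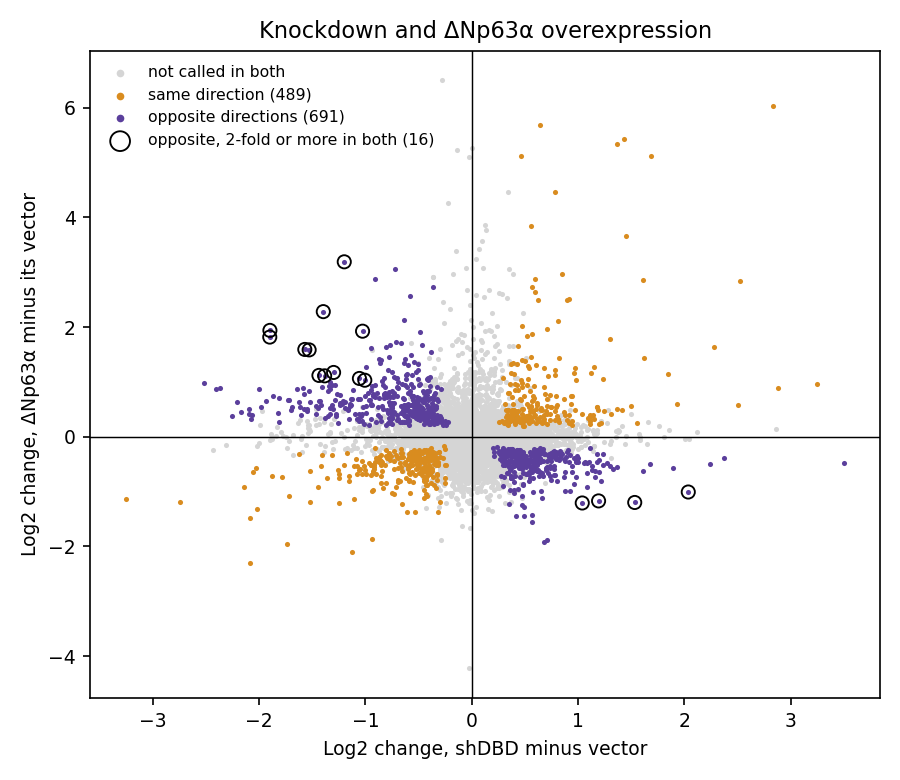
Log2 change with shDBD (horizontal, 2 arrays against 2) and with ΔNp63α (vertical, 3 against 3) for each of 11963 genes. The 691 genes called in opposite directions and the 489 called in the same direction are coloured, and the 16 with opposite changes of at least 2-fold in both are ringed.

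Both hairpins were compared directly. The difference of their means takes no vector array, and the vector arrays enter the test only through the variance shared by all arrays. Between shDBD and shTA 2099 genes differed, or 17.5%. Of the 2455 genes called against the vector, 1597 (65.1%) also differed from shTA in the same direction, 796 higher and 801 lower, and 6 differed the opposite way. Both comparisons share the shDBD arrays, so these counts are not independent of each other. Of the 338 changed at least 2-fold, 320 (94.7%) differed from shTA in the same direction. Such a difference does not mean that shTA left the gene unchanged. Against the vector, shTA also raised CYP4B1 (1.01 ± 0.14), ID2 (1.31 ± 0.12) and CFB (1.48 ± 0.16), by less than shDBD. SLC7A11 (0.042 ± 0.18) and PHGDH (−0.16 ± 0.14) did not pass with shTA. How many of the 338 were also called with shTA was not counted. SRGN was 4.21 ± 0.19 and FGFR3 −2.82 ± 0.11 against shTA. Both exceed the changes against the vector, since shTA moved these genes the opposite way. With shTA against the vector, SRGN was at −0.96 ± 0.19 and FGFR3 at 0.93 ± 0.11, both called. For 18 of the 338 no difference between the hairpins was called. They included AQP3, a water and glycerol channel, which stood at 8.03 and 8.05 in the vector arrays and 9.38 and 9.59 with shDBD (1.45 ± 0.11) and differed from shTA by 0.020 ± 0.11, as well as EHF (0.30 ± 0.12), LOX (0.26 ± 0.20), BCL6 (0.39 ± 0.15), IL1R1 (−0.35 ± 0.14), FERMT2 (0.43 ± 0.20) and ANGPTL4 (−1.03 ± 0.11 against the vector and −0.043 ± 0.11 against shTA). A missed threshold does not show that the hairpins act alike on these genes. Without shDBD replicate 1, or shTA replicate 1 or 2, the count of genes that differed was 1258, 1363 and 1393, and with the knockdown arm fitted alone it was 3209.

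Several probe sets of a gene gave a further reading. Of the 2455 called genes, 987 had more than 1 probe set with a symbol of its own. In 591 of them at least 1 other probe set was called in the same direction, and in 400 all others were. The other probe sets of called genes had the sign of the representative one in 89.5% of cases. A further 318 genes were not called by the representative probe set but were called by another. A gene said not to pass is therefore judged on 1 probe set. In 6 genes, ARPP19, BBLN, DMAC2L, PIGL, RUFY3 and TMED10, probe sets were called in opposite directions. For TMED10, a cargo receptor of the secretory pathway, the representative probe set changed by 0.38 ± 0.082 and the other by −0.60 ± 0.082, so no direction is given for this gene.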

How the data were processed

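Biotin-labelled total RNA was hybridised to Affymetrix arrays. The deposited values are log2 expression levels per probe set, made by the authors with RMA, per the submitters' processing notes, and the version is not given in the sources used here. RMA gives arrays processed together nearly the same distribution. The medians of all probe sets were 7.19 to 7.21 in the hairpin and hairpin vector arrays and 6.95 to 6.98 in the overexpression arrays, so levels are not compared across these arms. A shift shared by most transcripts is therefore lost, and changes at low levels are understated. Of 22277 probe sets, 62 were array controls, 1043 had several gene symbols and 2108 were not listed in the annotation used here. The other 19064 had 1 symbol, and a RefSeq gene table held 19052 of these and changed 0 names.

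The tests were limma's (3.58.1, R 4.3.3), fitted as 6 group means over the 15 arrays (9 residual and 5.71 prior degrees of freedom), variances moderated with a trend, two-sided tests and Benjamini-Hochberg adjustment over 19064 probe sets, at 0.05. Levels below the 20th percentile of the arrays (5.4) counted as low, with no proof of signal over background.

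The genes named were drawn from the 30 largest rises and falls, up to 8 called and 3 uncalled members per list, and up to 10 genes moved oppositely by ΔNp63α. Not every gene in these groups was named, and those left out include some of the 30 largest rises and falls. MDM2, ATF4, HLA-DRA and CD74 were chosen after their values were seen. The members and lists were chosen with earlier results of these data known. Some genes stand in several lists.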

Additional observations from a re-analysis of the deposited data

Results flagged for a closer look

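The effects of both hairpins differed for many of the genes described. Of the 2455 genes called with shDBD, 1597 differed between shDBD and shTA in the direct test in the direction of their change, where 17.5% of all genes differed. Both effects are measured against the same vector arrays, and the difference between the hairpins takes no vector array, which enters the direct test only through the shared variance.

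A signal was also present in probe sets outside the genes described. Of 3151 probe sets with several symbols or none in the annotation used here, 413 were called with shDBD against the vector, 223 higher and 190 lower, or 13.1%. They are not named.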

How the results depend on the processing

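Of 221 genes named, 177 were called, and 0 of these changed sign under any alternative run. In most runs the sign could not change. Fits that differ only in variance or in the other arrays keep the change itself. Leaving out an array of the comparison keeps the sign where the groups do not overlap. Only the runs with another normalization, the floor or the mean of probe sets could have moved it. The calls of PECAM1, KDR, CDKN1B, PMAIP1, ID1, KRT1, KRT13, KRT14 and KRT16 were lost under at least 1. Of the 44 uncalled genes, 21 were called with the knockdown arm fitted alone and 26 with the 4 arrays alone. Uncalled values crossed 0 with quantile normalization for CENPC (0.0044) and XRCC5 (−0.0066), and with the mean of probe sets for XRCC5 (−0.028), a setting that put CDH1 at −0.43. Leaving out single arrays moved CDH1 between −0.23 and 0.049, CENPC between −0.21 and 0.18 and PTPRC between −0.036 and 0.17.

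The number of genes called, 2455, was 1573 at a threshold of 0.01, 3558 with the knockdown arm alone and 3757 with the 4 arrays alone. At 0.01, 397 genes were called oppositely with ΔNp63α. Between the hairpins, 3209 genes differed with the knockdown arm alone. Nucleotide synthesis genes that fell numbered 19 with either smaller fit. Leaving out each of the 15 arrays gave 1561 to 2877 genes called and 1258 to 2495 genes between the hairpins. Leaving out each array of the 4 groups behind the ΔNp63α comparison gave 473 to 753 genes called oppositely. Without each of the 4 arrays of the comparison, 2279 to 2386 probe sets were called, against 3636. With each of the 15 arrays left out, the members called ranged from 11 to 19 (DNA repair), 14 to 32 (oxidative phosphorylation), 15 to 28 (lysosome), 7 to 13 (complement) and 8 to 17 (nucleotide synthesis). Where an array of the comparison is left out, the lone array of its group is assumed to vary like the other groups. The causes were not tested.

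Residuals of vector and shDBD arrays with the same replicate number correlated at 0.0703. With 2 arrays per group this is a single value for both numbers, so it cannot settle whether the arrays were paired. Between overexpression groups the correlations ran from −0.62 to 0.471. With the replicate number as a block, 2117 genes were called, 338 of them at least 2-fold, and 1760 differed between the hairpins. Signal over background limits the low genes, and 2 arrays per group limit every estimate.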
